A study of Mus musculus with 9 samples.

Results

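The 35 genes described here are *Myc*, *Mycn*, their partner *Max*, the competitor *Mxd1*, and 31 genes whose products make ribosomes. They were taken by symbol from the 17943 genes of a bulk RNA sequencing table of mouse skin, and all 35 had a row and enough counts to be tested. The table holds 5 control and 4 *Supt6*-KO mice, whose skin was taken 10 days after the last injection. SPT6, the product of *Supt6*, travels with RNA polymerase II as a histone chaperone and elongation factor. *Supt6*-KO mice were K14-CreERT; *Supt6* fl/fl mice given tamoxifen, in which the keratin 14 promoter places the inducible Cre in basal keratinocytes, while dermis, muscle, cartilage and immune cells keep intact *Supt6* alleles. According to the paper the controls were *Supt6* fl/fl mice without Cre that received corn oil, so that both groups carried the floxed alleles and the effects of Cre, tamoxifen and deletion cannot be told apart. The sample labels name the controls wild-type and the tissue ear, whereas the methods name dorsal skin. The paper describes the *Supt6*-KO skin that was sequenced as lesional and that of the controls as matched. Ages are not given in the labels, and the paper places induction in the first telogen, the resting phase of the hair cycle.

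MYC is a transcription factor that binds DNA as a pair with MAX, most often at the E-box CACGTG, whereas proteins of the MXD family compete for MAX and repress the same sites. Ribosome production is among the best known programs that MYC drives. It starts in the nucleolus, where RNA polymerase I makes the ribosomal RNA precursor, small nucleolar ribonucleoproteins (snoRNPs) modify it, and separate sets of factors process the small subunit and assemble the large subunit. In skin this program is busiest in the dividing basal keratinocytes.

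Counts summed to between 29627341 and 30967107 per mouse, so that depth differed little. The composition of the libraries differed more. The TMM factors, which correct for it, lay between 1.2 and 1.31 in the controls and between 0.674 and 0.91 in the *Supt6*-KO mice. With library totals in place of these factors, the median change over all 16426 genes tested moved from -0.07 to -0.76 on the log2 scale, and each change below is therefore relative to the bulk of genes. *Supt6*-KO mouse 4 stood apart from the other *Supt6*-KO mice. It was at -59 on the second principal component (8.1% of the variance), where *Supt6*-KO mice 1 to 3 were between 11.2 and 31.5, and the plot of fold changes shows each of the 35 genes with and without it. In whole skin, fewer cells of a type and less RNA per cell cannot be told apart.

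*Supt6* itself (chr11:78206749-78245972, GRCm38) checked the labels. Its counts were 2786, 2068, 2297, 3370 and 3798 in control mice 1 to 5 and 684, 503, 478 and 791 in *Supt6*-KO mice 1 to 4. All *Supt6*-KO mice were below all controls, including *Supt6*-KO mouse 4. The level fell from 76.5 ± 17.2 (SD, n = 5) to 25.7 ± 3.31 (SD, n = 4) TMM-normalized counts-per-million (CPM), a log2 fold change of -1.57 (SE 0.18, edgeR adjusted p = 1.3e-05).

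The 35 genes changed in both directions. At an adjusted p under 0.05, 17 genes were higher in *Supt6*-KO skin, where 34.1% of all genes tested were higher, and 7 were lower, where 36.8% of all genes were lower. The other 11 were not called. The share that changed in either direction was thus close to that of all genes, and the balance between the directions lay further towards rises. At least 2-fold, 11 were higher (20.9% of all genes) and 2 were lower (24.9% of all genes), namely *Mycn* and *Polr1a*. The *Supt6*-KO mice lay above all controls in 16 genes (28.9% of all genes) and below all controls in 3 genes (31.8% of all genes), and the groups overlapped in 16. The median log2 fold change was 0.34, against -0.07 over all genes tested, and the range ran from -3.13 for *Mycn* to 2.31 for *Nhp2*. Without *Supt6*-KO mouse 4 the counts were 16 higher (35.1% of all genes) and 15 lower (39.1% of all genes), and the median was 0.06. With library totals they were 9 higher (16.9% of all genes) and 16 lower (54.6% of all genes).

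**Figure D1:**
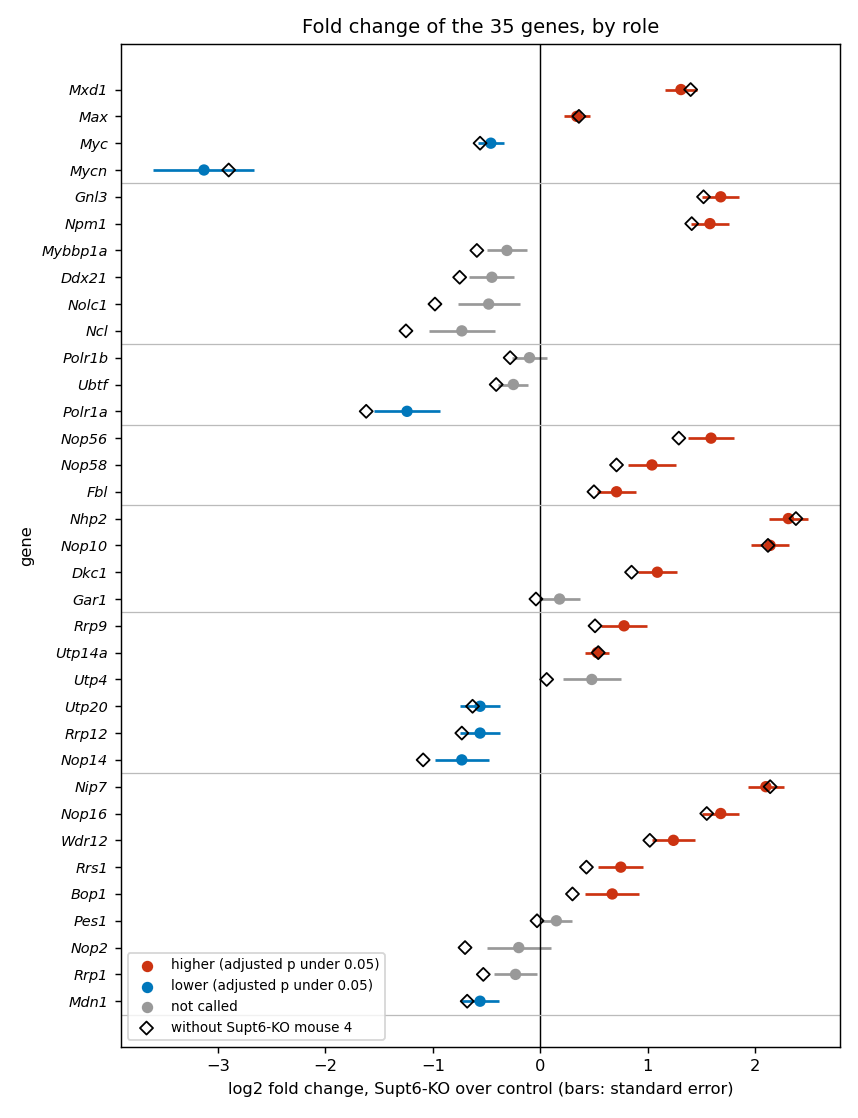
Log2 fold change of *Supt6*-KO over control for each of the 35 genes (horizontal axis, with standard errors), in blocks by role from the MYC network at the top to large subunit assembly at the bottom; filled points show all 9 mice and open diamonds the fit without *Supt6*-KO mouse 4. The snoRNP genes were at or above 0, *Mycn* was lowest at -3.13, and the diamonds of *Ncl*, *Nolc1* and *Nop2* lay well to the left of their filled points.

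The MYC network split. Transcripts of *Myc* and *Mycn* were lower in *Supt6*-KO skin, and those of their partner *Max* and of the competitor *Mxd1* were higher. *Myc* (chr15:61985341-61990361) was measured at 88.3, 80.8, 72.1, 94.7 and 80.0 CPM in control mice 1 to 5 and at 57.1, 59.8, 53.2 and 72.1 CPM in *Supt6*-KO mice 1 to 4. The highest *Supt6*-KO value, that of mouse 4, equalled the lowest control value to 3 digits, and the other *Supt6*-KO mice were clearly below. The mean fell from 83.2 ± 8.62 CPM (SD, n = 5) to 60.6 ± 8.13 (SD, n = 4), with a log2 fold change of -0.46 (SE 0.12, edgeR adjusted p = 0.0063), and without *Supt6*-KO mouse 4 the change was -0.56 (adjusted p = 9.4e-04). *Mycn* (chr12:12936093-12941836), the relative of *Myc* best known from neural and embryonic tissue, was rare in every library. Control libraries contained 91, 38, 41, 30 and 33 counts, and *Supt6*-KO libraries only 4, 4, 3 and 2. All *Supt6*-KO mice were far below all controls, and control mouse 1 stood above its group. From the counts pooled over each group, 13 against 233 and scaled by normalized library size, *Mycn* was 9.1-fold lower in *Supt6*-KO skin, with a 95% interval of 5.22 to 17.3 that covers counting error only. The edgeR log2 fold change was -3.13 (adjusted p = 1.1e-04).

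*Max* (chr12:76937269-76962323) codes for the protein with which MYC, MYCN and the MXD proteins all pair. It was at 105, 105, 84.7, 103 and 82.9 CPM in the controls and at 136, 122, 114 and 113 CPM in the *Supt6*-KO mice. The groups did not overlap, but the gap between them was small. The rise had a log2 fold change of 0.34 (SE 0.12, edgeR adjusted p = 0.026), and it turned to -0.36 (adjusted p = 0.034) with library totals. *Mxd1* (chr6:86647044-86669234), which is switched on in differentiating keratinocytes and opposes MYC, rose from 46.8, 40.9, 36.3, 48.3 and 38.1 CPM in the controls to 135, 106, 92.7 and 84.1 CPM. Every *Supt6*-KO mouse was well above every control, and *Supt6*-KO mouse 4 was the lowest of its group here. Its log2 fold change was 1.31 (SE 0.15, edgeR adjusted p = 1.6e-05), and it was 0.61 (adjusted p = 0.005) with library totals.

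**Figure D2:**
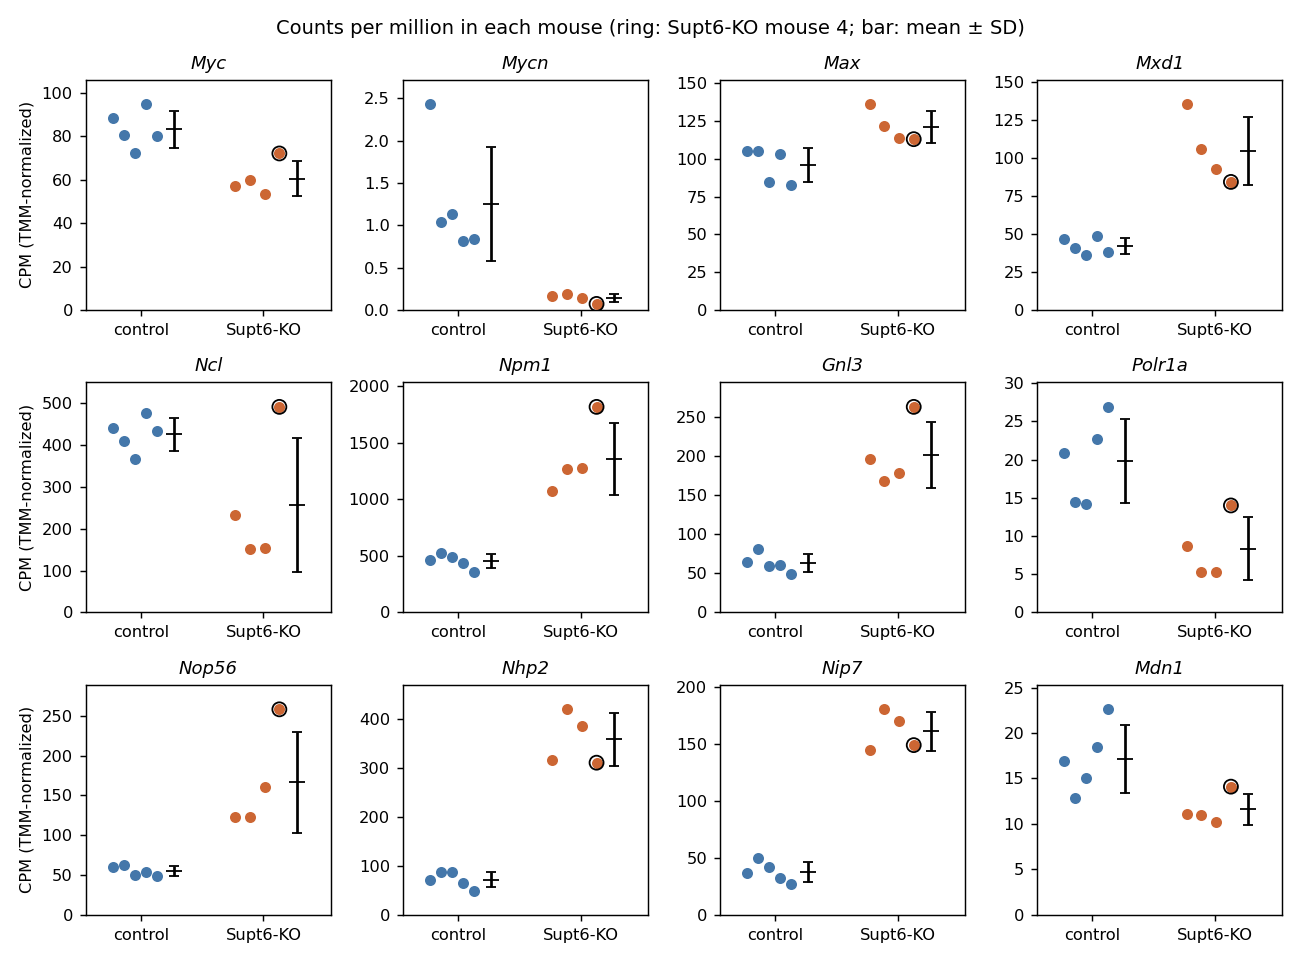
TMM-normalized CPM (vertical axes, from 0) of 12 genes in each control and *Supt6*-KO mouse, with a bar for the mean ± SD of each group and a ring around *Supt6*-KO mouse 4. *Mxd1*, *Npm1*, *Gnl3*, *Nop56*, *Nhp2* and *Nip7* were higher in all 4 *Supt6*-KO mice, while for *Ncl* mouse 4 (491 CPM) lay above all controls and mice 1 to 3 (151 to 232 CPM) below.

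Among the 6 genes for nucleolar scaffold proteins and regulators, 2 rose and 4 were not called. The genes that rose were *Gnl3*, which codes for nucleostemin, a GTPase of the nucleolus of dividing and stem cells, and *Npm1*, the gene for the abundant nucleolar chaperone nucleophosmin. *Gnl3* (chr14:31012433-31019131) was at 64.2, 81.3, 60, 61 and 48.8 CPM in the controls and at 196, 168, 179 and 263 CPM in the *Supt6*-KO mice. Without overlap between the groups, its log2 fold change was 1.68 (SE 0.17, edgeR adjusted p = 7.0e-06). *Npm1* went from 454 ± 61.9 CPM (SD, n = 5) to 1357 ± 319.9 (SD, n = 4), with a log2 fold change of 1.58 (SE 0.18, adjusted p = 1.6e-05). Nucleolin, coded by *Ncl* (chr1:86344719-86359455), binds the ribosomal RNA precursor and its transcription units. Its level was 439.7, 409.7, 367, 476 and 434 CPM in the controls and 232, 151, 155 and 491 CPM in the *Supt6*-KO mice. *Supt6*-KO mice 1 to 3 were below all controls and *Supt6*-KO mouse 4 was above all of them. The log2 fold change of -0.73 (SE 0.31) did not pass the test (edgeR adjusted p = 0.057), and without *Supt6*-KO mouse 4 *Ncl* fell by 1.25 on the log2 scale (adjusted p = 4.0e-05). *Nolc1*, a chaperone of snoRNPs, and *Mybbp1a*, a partner of RNA polymerase I, showed the same arrangement, while for *Ddx21*, a nucleolar RNA helicase, mouse 4 was within the controls. The log2 fold changes of *Nolc1*, *Ddx21* and *Mybbp1a* were -0.48, -0.45 and -0.31 over all mice. Without *Supt6*-KO mouse 4 these values were -0.98, -0.75 and -0.59, and each passed the test.

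Of the 3 genes of RNA polymerase I and its activator, *Polr1a* fell and the other 2 were not called. *Polr1a* (chr6:71909053-71979435) codes for the largest subunit. Its CPM were 20.8, 14.4, 14.2, 22.7 and 26.9 in the controls and 8.73, 5.28, 5.35 and 14.0 in the *Supt6*-KO mice. The *Supt6*-KO mice were below all controls, mouse 4 only just. This was a log2 fold change of -1.24 (SE 0.31, edgeR adjusted p = 0.004). After correction for transcript length *Polr1a* was at -0.27 and not called (adjusted p = 0.37). *Polr1b* (chr2:129100970-129128060), for the second largest subunit, was at 27.6, 25.1, 21.6, 26.6 and 26.8 CPM in the controls and at 21.5, 21.5, 20 and 32.4 CPM in the *Supt6*-KO mice. Here mice 1 to 3 lay below all controls, mice 1 and 2 only just, and mouse 4 above all of them. The log2 fold change was -0.10 (SE 0.16, adjusted p = 0.6). Without *Supt6*-KO mouse 4 it was -0.28 and passed the test (adjusted p = 0.042). *Ubtf*, the activator that coats active ribosomal DNA, had a log2 fold change of -0.25 (SE 0.14, adjusted p = 0.14), which was -0.41 (adjusted p = 0.0048) without *Supt6*-KO mouse 4.

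Of the 7 snoRNP genes 6 rose, and with library totals 3 of them (*Nop56*, *Nhp2* and *Nop10*) were called. Box C/D snoRNPs add methyl groups to ribosomal RNA, and all 3 of their proteins in the list were higher. The scaffold protein gene *Nop56* (chr2:130274367-130279313) was at 59.8, 62.9, 50.4, 54.3 and 48.7 CPM in the controls and at 123, 123, 161 and 258 CPM in the *Supt6*-KO mice. *Supt6*-KO mouse 4 was highest, and the remaining *Supt6*-KO mice were all above the controls. The log2 fold change was 1.59 (SE 0.21, edgeR adjusted p = 4.4e-05). *Fbl* (chr7:28168893-28179269), the gene for the methyltransferase fibrillarin, rose least, from 72.3, 81.8, 69.6, 71.8 and 52.4 CPM in the controls to 113, 94.2, 88.6 and 159 CPM. The lowest *Supt6*-KO mouse was only slightly above the highest control, and the log2 fold change was 0.71 (SE 0.18, edgeR adjusted p = 0.0048). With library totals it was 0.06 (adjusted p = 0.84). *Nop58*, the second scaffold protein, lay between them at 1.04 (SE 0.22, adjusted p = 0.0015), with 0.71 (adjusted p = 4.5e-04) without *Supt6*-KO mouse 4 and 0.40 (adjusted p = 0.22) with library totals.

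Box H/ACA snoRNPs convert uridines of ribosomal RNA to pseudouridine, and 3 of their 4 protein genes rose. *Nhp2* (chr11:51619773-51623718), a small RNA-binding subunit, showed the largest rise of all 35 genes before any correction for length. Its CPM were 70.5, 87.4, 87.2, 66.0 and 49.7 in the controls and 317, 420.0, 386 and 311 in the *Supt6*-KO mice. The groups were far apart, and *Supt6*-KO mouse 4 was not the highest of its group. The log2 fold change was 2.31 (SE 0.18, edgeR adjusted p = 1.4e-06), a 4.97-fold rise, and 1.48 after correction for transcript length. *Nop10*, the smallest subunit, rose by a log2 fold change of 2.14 (SE 0.18, adjusted p = 2.2e-06), and *Dkc1*, the pseudouridine synthase dyskerin that also belongs to telomerase, by 1.09 (SE 0.18, adjusted p = 2.1e-04). With library totals *Dkc1* was at 0.44 and not called (adjusted p = 0.11). *Gar1* (chr3:129824912-129831407), the remaining core subunit, was the exception. It was measured at 19.6, 20.7, 17.2, 20.9 and 19.4 CPM in the controls and at 24.1, 15.5, 17.9 and 31.2 CPM in the *Supt6*-KO mice. *Supt6*-KO mice 1 and 4 were above the controls, mouse 2 below and mouse 3 within them, with a log2 fold change of 0.18 (SE 0.19, edgeR adjusted p = 0.4) and of -0.04 without *Supt6*-KO mouse 4.

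Small subunit processing genes had no common direction, with 2 of 6 higher, 3 lower and 1 not called. The largest rise was that of *Rrp9* (chr9:106477309-106485415), which codes for a protein of the U3 snoRNP. Control mice 1 to 5 had 15.8, 17.7, 15.1, 13.8 and 11.2 CPM and *Supt6*-KO mice 1 to 4 had 22.2, 20.9, 19.9 and 38.0 CPM. All *Supt6*-KO mice were above the controls and mouse 4 was well above the rest. The rise had a log2 fold change of 0.78 (SE 0.21, edgeR adjusted p = 0.0055), which was 0.51 (adjusted p = 0.0077) without *Supt6*-KO mouse 4 and 0.14 (adjusted p = 0.65) with library totals. *Nop14* (chr5:34638536-34660148), a factor of the early small subunit particle, changed the other way, from 36.3, 33.7, 26.8, 39.1 and 32.8 CPM in the controls to 20.3, 13.6, 13.8 and 33.3 CPM. *Supt6*-KO mouse 4 was within the controls and the other *Supt6*-KO mice were below them. Its log2 fold change was -0.73 (SE 0.25, edgeR adjusted p = 0.02), and -1.09 (adjusted p = 1.4e-04) without *Supt6*-KO mouse 4. Among the remaining 4 genes, all for parts of the small subunit processome or its export, *Utp14a* rose (log2 fold change 0.53, adjusted p = 0.0015; with library totals -0.16, not called), *Rrp12* fell (-0.56, adjusted p = 0.018), *Utp20* fell (-0.56, adjusted p = 0.022), and *Utp4* was not called (0.48, adjusted p = 0.13, and 0.06 without *Supt6*-KO mouse 4). The 18.9% of the exon bases of *Utp14a* that overlap a gene on the other strand limit that value, because strand use in the counting is not stated. After correction for transcript length *Utp20* was higher instead (0.40, adjusted p = 0.019) and *Rrp12* was not called (-0.21, adjusted p = 0.27).

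Large subunit assembly held 9 genes, of which 5 rose, 1 fell and 3 were not called. *Nip7* (chr8:107056877-107060931), a small factor of pre-ribosomal RNA processing, was at 36.6, 49.6, 42.0, 32.4 and 26.9 CPM in the controls and at 145, 180.4, 169.9 and 149 CPM in the *Supt6*-KO mice. The groups were far apart, and *Supt6*-KO mouse 4 lay within the range of the other *Supt6*-KO mice. The log2 fold change was 2.10 (SE 0.17, edgeR adjusted p = 1.7e-06). *Nip7* had estimated counts that were not whole numbers in 7 of the 9 mice, which means that some of its reads were shared out between genes. *Mdn1* (chr4:32657114-32775217), the gene for the very large AAA ATPase midasin that strips assembly factors from the particle, had 16.9, 12.8, 15.0, 18.5 and 22.6 CPM in the controls and 11.1, 11.0, 10.2 and 14.1 CPM in the *Supt6*-KO mice. It fell, with *Supt6*-KO mouse 4 inside the range of the controls, by a log2 fold change of -0.56 (SE 0.18, edgeR adjusted p = 0.014). After correction for transcript length *Mdn1* was higher instead (0.71, adjusted p = 5.4e-04). The PeBoW complex, in which *Bop1*, *Pes1* and *Wdr12* work together, did not move as one. *Wdr12* rose (log2 fold change 1.24, adjusted p = 1.5e-04), *Bop1* rose (0.67, adjusted p = 0.029) but not without *Supt6*-KO mouse 4 (0.30, adjusted p = 0.08), and *Pes1* was not called (0.15, adjusted p = 0.39, and -0.03 without *Supt6*-KO mouse 4). *Nop16* (1.68, adjusted p = 6.4e-06) and *Rrs1* (0.75, adjusted p = 0.008, and 0.43 without *Supt6*-KO mouse 4) also rose. With library totals *Bop1* was at 0.05 (adjusted p = 0.9) and *Rrs1* at 0.11 (adjusted p = 0.74), neither called. *Nop2*, a ribosomal RNA methyltransferase, and *Rrp1* were not called over all mice, at -0.20 and -0.23, and both fell without *Supt6*-KO mouse 4, by 0.70 (adjusted p = 0.0036) and 0.53 (adjusted p = 0.0012) on the log2 scale.

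The difference between *Supt6*-KO mouse 4 and the other *Supt6*-KO mice ran through the list. Mouse 4 was above all 5 controls in 27 of the 35 genes, within them in 5 and below them in 3, which were *Myc*, *Mycn* and *Polr1a*. Mice 1, 2 and 3 were above all controls in 19, 16 and 17 genes and below in 14, 16 and 15. Shares of all genes are not given for single mice, so these counts have no background to be read against. Mice 1 to 3 were all below the controls in 13 genes (36.6% of all genes tested) and all above them in 16 (33.9% of all genes tested). In 10 of the 13, mouse 4 was within or above the controls. The summed CPM of the 35 genes was 2654, 2733, 2396, 2634 and 2317 in the controls and 3874, 3889, 3918 and 5789 in the *Supt6*-KO mice. On this TMM scale the sum was higher in every *Supt6*-KO mouse and most in mouse 4. Abundant genes such as *Npm1* weigh most in that sum. The rise in every *Supt6*-KO mouse depends on the TMM factors, which were lower in these mice. Sums with library totals are not given, and the median log2 fold change of the 35 genes was then -0.36. The median log2 ratio to the control mean over the 35 genes was 0.42, -0.11, -0.01 and 0.67 in *Supt6*-KO mice 1 to 4. Mouse 4 was the highest *Supt6*-KO mouse in 28 of the 35 genes and in 35.4% of all genes tested, and it was the lowest in 4.

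**Figure D3:**
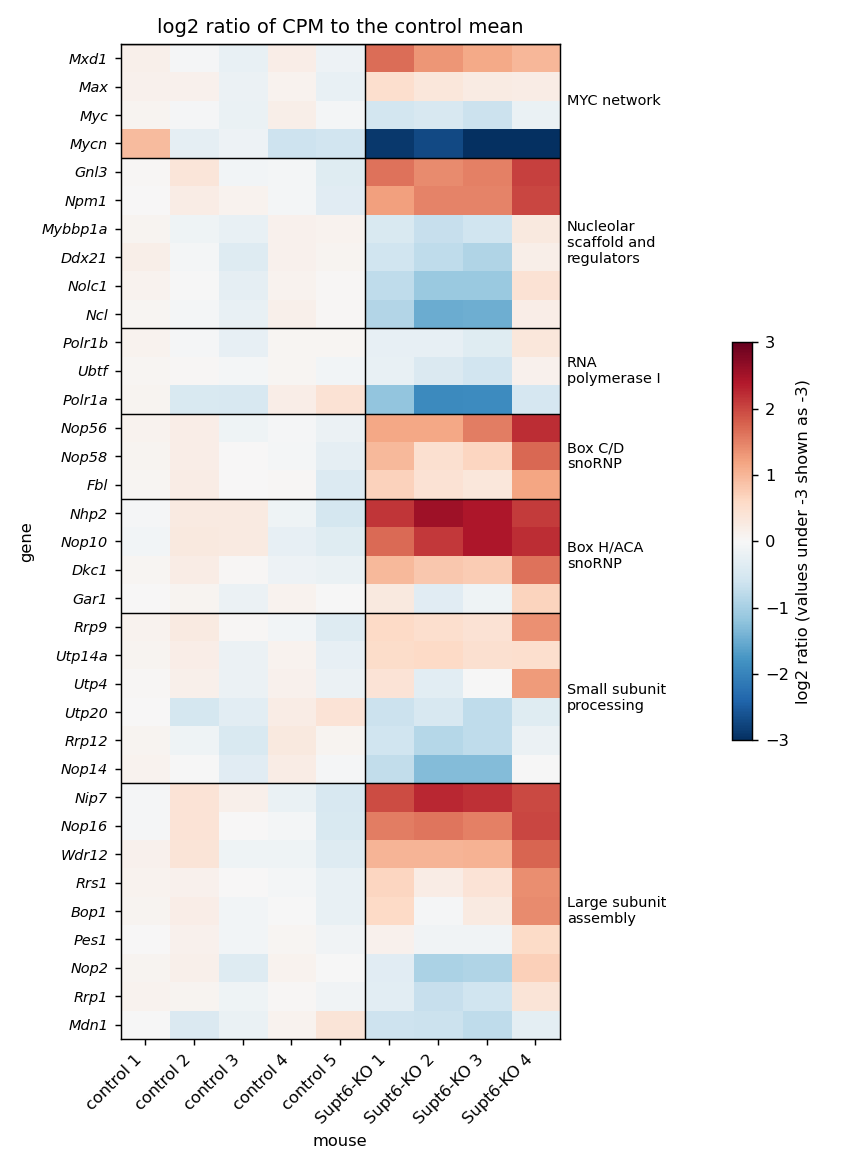
Log2 ratio of each mouse's CPM to the control mean (color, from -3 in blue to 3 in red) for the 35 genes (rows, in blocks by role) in 5 control and 4 *Supt6*-KO mice (columns). In the nucleolar scaffold, RNA polymerase I and small subunit blocks, *Supt6*-KO mice 1 to 3 were blue in rows where mouse 4 was pale or red, whereas *Npm1*, *Gnl3*, *Nhp2*, *Nop10*, *Nip7* and *Nop16* were red in all 4.

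**Figure D4:**
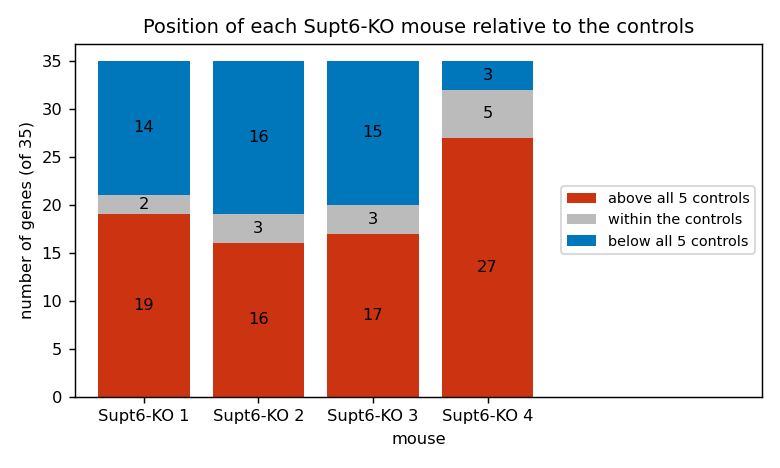
Number of the 35 genes (vertical axis, from 0) in which each *Supt6*-KO mouse lay above all 5 controls, within them or below all 5. Mice 1 to 3 split nearly evenly between above (16 to 19) and below (14 to 16), and mouse 4 was above in 27 and below in 3. No share of all genes is given for single mice.

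Markers of other cell types and of dividing cells also moved between these mice, and their part in the results was not tested. The 8 proliferation markers, of which *Pcna* was the most abundant, summed to 249, 230.1, 260.5, 244 and 295 CPM in the controls and to 338, 299.9, 399 and 985 CPM in the *Supt6*-KO mice. All *Supt6*-KO sums were above the controls and that of mouse 4 was far above the rest. Of these 8, 4 rose (*Ccnb1*, *Cdk1*, *Aurkb* and *Pcna*) and none fell, and without *Supt6*-KO mouse 4 the same number rose and *Mki67* was at -0.10 and *Top2a* at -0.19 on the log2 scale. With library totals 3 of the 8 were higher, and *Pcna* was at 0.05 (edgeR adjusted p = 0.87). After correction for transcript length 6 of the 8 were higher, without *Pcna* (0.21, adjusted p = 0.4). The 8 keratinocyte markers summed to 26853, 25839, 25634, 28930 and 26782 CPM in the controls and to 41420, 36212, 36487 and 29563 CPM in the *Supt6*-KO mice, with *Krt10* the most abundant. On the TMM scale their sum was lowest in mouse 4 among the *Supt6*-KO mice. Only *Krt1* rose (log2 fold change 3.65, edgeR adjusted p = 5.3e-07), and *Krt5*, *Trp63*, *Col17a1* and *Dsp* fell. The basal keratin gene *Krt14* was at 3379 ± 304 CPM in the controls and 5355 ± 2915 CPM in the *Supt6*-KO mice and was not called (0.66, adjusted p = 0.063), and *Krt10* and *Dsg3* were not called either. Without *Supt6*-KO mouse 4, *Dsg3* was lower (-1.09, adjusted p = 0.0016) and *Krt10* higher (0.42, adjusted p = 0.049). With library totals 1 of the 8 keratinocyte markers was higher and 5 were lower.

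Infiltrating and deeper tissues changed as well. The macrophage markers summed to 219, 206, 153, 202 and 313 CPM in the controls and to 835, 854, 1144 and 669 CPM in the *Supt6*-KO mice, led by *Lyz2*, and 7 of 8 were higher, while *Csf1r* fell by 1.83 on the log2 scale (edgeR adjusted p = 5.1e-05). Only 4 of these 8 were higher with library totals, and 4 after correction for transcript length. The neutrophil sums, led by *Retnlg*, were 9.6, 7.42, 7.03, 8.19 and 4.48 CPM in the controls and 38.0, 34.1, 81.0 and 24.5 CPM in the *Supt6*-KO mice, with 5 of 7 tested markers higher, *Mpo* lower (0.354 ± 0.223 CPM in the controls and 0.0104 ± 0.0209 CPM in the *Supt6*-KO mice) and *Elane* at no more than 1 count in any mouse. Counts were low, and only 2 of the 7 had at least 10 counts in every mouse, both of them higher. *Ly6g*, among the 5, had 4, 0, 15 and 1 counts in *Supt6*-KO mice 1 to 4, and its groups overlapped. On the TMM scale the macrophage and neutrophil sums were lowest in mouse 4 among the *Supt6*-KO mice, unlike the sum of the ribosome biogenesis genes. Fibroblast markers, led by *Col3a1*, summed to 4991, 4516, 3176, 6174 and 10845 CPM in the controls and to 2648, 3164, 3992 and 2113 CPM in the *Supt6*-KO mice, and 5 of 8 were lower. Skeletal muscle markers, led by *Acta1*, summed to 4596, 4824, 5034, 3790 and 4075 CPM in the controls and to 1003, 1306, 1150 and 783 CPM in the *Supt6*-KO mice, and 7 of 8 were lower. Cartilage markers, led by *Acan*, summed to 497, 402, 379.9, 583 and 882 CPM in the controls and to 68.1, 82.7, 74.6 and 77.8 CPM in the *Supt6*-KO mice, and all 7 tested were lower, with *Matn1* at no more than 1 count. Cartilage and muscle transcripts were thus present in the control libraries and much lower in the *Supt6*-KO libraries.

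Levels of different genes were compared per length, on the transcripts-per-million (TPM) scale, which was deposited for the 5 controls and *Supt6*-KO mouse 4. In the controls *Npm1* was by far the most abundant, at 655 ± 20.8 TPM (SD, n = 5). It was followed by *Nhp2* at 164 ± 17.8, *Nop10* at 143 ± 13.5 and *Fbl* at 131 ± 11 TPM, and these neighbours were within the spread of each other. *Rrp1* (95.8 ± 11.7 TPM), *Max* (92.2 ± 12 TPM) and *Ncl* (85.5 ± 16.2 TPM) came next and likewise overlapped. The level of *Myc* was 63.8 ± 11.3 TPM, that of *Mxd1* 15.4 ± 2.72 TPM, and the lowest levels were those of *Mdn1* (1.58 ± 0.541 TPM) and *Mycn* (0.868 ± 0.468 TPM). The TPM of *Ncl* rests on an effective length of 9683 bases, which the deposited counts and TPM imply. In *Supt6*-KO mouse 4 *Npm1* was at 1350, *Nhp2* at 366 and *Nop10* at 347 TPM, so that these 3 genes remained the most abundant. TPM are not corrected for library composition, and on that scale *Max* was at 54.3 TPM in *Supt6*-KO mouse 4, below its control mean.

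Fold change went with gene length, among these genes as in the whole table. Effective lengths implied by the counts and TPM of the controls were available for 34 of the 35 genes and for 13044 genes in all. The rank correlation (Spearman's rho) of log2 fold change with length was -0.66 over the 34 genes and -0.43 over all genes, a description across genes that share the same 9 libraries. Under 2000 bases, 8 of 9 genes rose and none fell, with a median log2 fold change of 1.59, where 60.2% of all genes of that length were higher and 19.4% lower, with a median of 0.74. Between 2000 and 4000 bases, 8 of 14 rose and 2 fell, with a median of 0.50, where 35.3% of all genes were higher and 36.7% lower, with a median of -0.01. At 4000 bases or more, 1 of 11 rose, *Mxd1*, and 4 fell, with a median of -0.48, where 17.6% of all genes were higher and 59% lower, with a median of -0.66. The long genes *Utp20* and *Mdn1* lay at the far end. When each library's trend with transcript length was removed, *Utp20* turned to 0.40 (edgeR adjusted p = 0.019) and *Mdn1* to 0.71 (adjusted p = 5.4e-04), so that the direction of these changes depended on that step. *Myc* (-0.61), *Mycn* (-3.18) and *Nop14* (-0.78) stayed lower under this correction, *Rrp1* gained a call (-0.51, adjusted p = 0.049), and *Polr1a* (-0.27) and *Rrp12* (-0.21) were no longer called. Among the genes that had risen, *Max* (0.04, adjusted p = 0.79), *Rrp9* (0.35, adjusted p = 0.16), *Bop1* (0.58, adjusted p = 0.054) and *Rrs1* (0.50, adjusted p = 0.057) lost their calls. With the implied lengths in place of transcript lengths, which was added after the data had been seen, the rise of *Fbl* was lost (-0.05, adjusted p = 0.84), as were those of *Max* (0.13, adjusted p = 0.29) and *Rrp9* (0.33, adjusted p = 0.18), while *Bop1* and *Rrs1* were called. The rises of the short genes *Nhp2* and *Nop10* were smaller, at 1.48 and 1.37 with transcript lengths and 1.37 and 0.93 with implied lengths, and stayed called. *Wdr12* (2.18 and 1.39), *Nip7* (2.16 and 2.29), *Mxd1* (1.74 and 1.88) and *Gnl3* (1.51 and 1.45) then lay above *Nhp2*, as did *Nop58* (1.96) and *Nop56* (1.79) with transcript lengths. With implied lengths *Nop58* (0.83) and *Nop56* (1.34) lay below *Nhp2*. Transcript length is that of the longest transcript, which for *Nop58* is 9507 bases against an implied 2011, and for *Wdr12* 10012 against 3202.

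To see whether the E-box that MYC and MAX bind marks any of these genes near their start, the letters CACGTG, which read the same on both strands, were searched in windows from 250 bases before to 50 bases after RefSeq start sites (GRCm38.p6). Windows were available for 29 of the 35 genes, without *Myc*, *Npm1*, *Fbl*, *Rrp12*, *Bop1* and *Rrs1*. The motif was present in 7 of the 29 (24.1%), where 10.7% of 12781 tested genes with such a window held it (8.09% of 27025 genes with a window, tested or not). Those 7 were *Max*, *Mybbp1a*, *Utp4*, *Utp20*, *Pes1*, *Nop2* and *Mdn1*. Shown here are the windows of *Max* and *Mdn1*, which hold the motif, and those of *Nhp2* and *Nip7*, which had the largest rises in their groups before any correction for length and lack it. The motif is in capitals, and each sequence reads 5′ to 3′ on the strand of its gene.

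*Max*, chr12:76962199-76962498, minus strand: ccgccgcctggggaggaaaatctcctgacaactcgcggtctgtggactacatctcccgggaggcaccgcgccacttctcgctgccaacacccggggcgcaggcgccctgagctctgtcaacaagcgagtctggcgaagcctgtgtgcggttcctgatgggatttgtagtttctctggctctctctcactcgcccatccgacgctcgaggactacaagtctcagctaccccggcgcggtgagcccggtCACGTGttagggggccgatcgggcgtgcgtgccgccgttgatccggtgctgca

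*Mdn1*, chr4:32656869-32657168, plus strand: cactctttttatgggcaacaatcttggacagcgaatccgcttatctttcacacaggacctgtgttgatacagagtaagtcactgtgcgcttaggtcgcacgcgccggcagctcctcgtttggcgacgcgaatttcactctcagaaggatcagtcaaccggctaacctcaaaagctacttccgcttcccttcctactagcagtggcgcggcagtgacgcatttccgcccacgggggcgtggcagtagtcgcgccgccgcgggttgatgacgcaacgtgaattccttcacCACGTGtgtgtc

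*Nhp2*, chr11:51619523-51619822, plus strand: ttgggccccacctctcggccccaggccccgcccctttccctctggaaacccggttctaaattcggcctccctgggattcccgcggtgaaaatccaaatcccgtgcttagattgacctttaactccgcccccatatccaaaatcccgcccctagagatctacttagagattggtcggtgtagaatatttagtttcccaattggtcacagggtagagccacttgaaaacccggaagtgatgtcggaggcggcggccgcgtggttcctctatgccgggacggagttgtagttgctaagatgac

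*Nip7*, chr8:107056627-107056926, plus strand: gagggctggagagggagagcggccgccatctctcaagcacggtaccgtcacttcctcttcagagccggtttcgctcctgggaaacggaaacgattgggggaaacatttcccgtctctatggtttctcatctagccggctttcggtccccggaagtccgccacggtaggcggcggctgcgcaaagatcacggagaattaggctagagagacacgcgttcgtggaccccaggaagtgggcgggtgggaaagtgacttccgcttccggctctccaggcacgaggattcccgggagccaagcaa

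Relative to the start site of the window shown, the first base of the motif was at -3 in *Max* and at 39 in *Mdn1*. Of the 7 genes with the motif 1 was higher (*Max*) and 2 were lower (*Utp20* and *Mdn1*), with a median log2 fold change of -0.20. After correction for transcript length *Max* was at 0.04 and not called, and *Utp20* (0.40) and *Mdn1* (0.71) were higher. Of the 22 without the motif, and with no correction for length, 12 were higher and 3 lower, with a median of 0.65. Corrected counts are not given for these 22, so the groups are not compared on that scale. Among all genes tested, the median was -0.01 with the motif (1364 genes, 35.9% higher and 34.8% lower) and -0.04 without it (11417 genes, 34.7% higher and 36.7% lower). The presence of these letters in the window is a description and shows no binding.

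Beyond the 35 genes, 126 other tested ribosome biogenesis genes showed 70 higher and 10 lower, where 34.1% and 36.8% of all genes were, and a median log2 fold change of 0.59. Their counts were 68 and 20 without *Supt6*-KO mouse 4 (35.1% and 39.1% of all genes), and 32 and 33 with library totals (16.9% and 54.6% of all genes). The counts of each list that follows stand beside the same shares. *Supt6*-KO mouse 4 was again the highest *Supt6*-KO mouse in 99 of the 126. Among 9 further genes of RNA polymerase I and its factors, 6 rose and 2 fell, with *Polr1d*, a small subunit shared with RNA polymerase III, at 2.10 (edgeR adjusted p = 4.2e-06), *Taf1d* at 2.13 and *Taf1c* at -1.0, the last 2 belonging to the promoter selectivity factor. Other snoRNP genes and their assembly factors counted 5 higher and 1 lower of 11 (2 and 3 with library totals, and 5 and 3 without *Supt6*-KO mouse 4), with the box C/D protein gene *Snu13* at 1.69, the assembly factor *Znhit3* at 2.42, and *Tcof1*, which codes for treacle, at -1.47 (edgeR adjusted p = 0.0066).

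More genes rose than fell in each of the remaining lists of the pathway, whereas with library totals 6 were higher and 8 lower in the small subunit list and 13 higher and 17 lower in the large subunit list. In the small subunit list 25 of 44 were higher and 2 lower, with the methyltransferase gene *Emg1* at 2.24 (edgeR adjusted p = 1.2e-06), the kinase gene *Riok3* at 0.79 (0.09 and not called with library totals), and *Nol6* at -1.34. In the large subunit list 23 of 49 were higher, 4 lower and 22 not called, with *Npm3*, a relative of *Npm1*, at 2.73 (edgeR adjusted p = 3.4e-07), *Nsa2* at 1.48, and *Pelp1* at -1.37. The RNA exosome, which trims ribosomal RNA precursors, had 11 of 13 genes higher, with its cofactor gene *C1d* at 1.98, and 1 lower, the nuclease gene *Exosc10*, at -0.74 (edgeR adjusted p = 0.002). With library totals 6 exosome genes were higher and 2 lower, and their median log2 fold change went from 1.11 to 0.43. Without *Supt6*-KO mouse 4 the small subunit list had 23 higher and 5 lower, and its median log2 fold change went from 0.55 to 0.33. In the large subunit list there were then 23 higher and 9 lower, and the median went from 0.39 to 0.09. Each gene named from these lists kept its direction and its call without that mouse.

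Of 10 MYC network genes outside the list, 7 were lower and 2 higher. After correction for transcript length 4 were lower and 4 higher (31.9% and 36.1% of all genes), and with implied lengths 6 and 4 (35.1% and 38.4%). *Mnt*, a widely expressed repressor that pairs with MAX, fell by 2.21 on the log2 scale (SE 0.24, edgeR adjusted p = 1.1e-05), from 26.4 ± 5.02 (SD, n = 5) to 5.66 ± 1.95 CPM (SD, n = 4). *Mxi1*, the most abundant, fell by 0.42 (adjusted p = 0.021). It was at 0.09 (adjusted p = 0.62) after correction for transcript length and at -0.40 (adjusted p = 0.027) with implied lengths. *Mxd3*, an MXD gene known from dividing cells, rose by 2.38 (adjusted p = 1.2e-05) from 1.64 ± 0.208 to 8.55 ± 3.28 CPM. Of 15 textbook MYC targets outside ribosome production, 10 were higher and 1 lower, against 9 and 4 without *Supt6*-KO mouse 4 and 7 and 3 with library totals. *Hspe1*, a mitochondrial chaperonin gene, rose most (2.95, adjusted p = 1.4e-06), the translation factor gene *Eif4a1* was the most abundant (1.14, adjusted p = 4.6e-05), and the cyclin gene *Ccnd2* fell from 181 ± 25.7 to 27.3 ± 11.7 CPM (-2.73, adjusted p = 5.9e-06).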

How the data were processed

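The authors used Bowtie2 2.3.4.3 to align the reads to mm10 and RSEM 1.3.1 to quantify genes, and they deposited estimated counts per gene, not normalized between mice, and TPM values for 6 of the 9 mice. The submitters' processing notes also name HISAT and DESeq2 1.4.5, and the annotation release and strand setting are not given in the sources used here. Of the deposited estimated counts, 9.0% were not whole numbers, and all were rounded. Groups and replicate numbers come from the sample titles, which name separate mice.

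Genes with at least 10 counts over the 9 mice were tested with edgeR 4.0.16 (R 4.3.3), TMM normalization and its quasi-likelihood test, without covariates, with Benjamini-Hochberg adjustment over 16426 genes. Adjusted p-values in the text come from this test, calls use a threshold of 0.05, and the standard error is the absolute log2 fold change divided by the square root of F. The script was tested on simulated data. Depth, 29627341 to 30967107 counts per mouse, sets a floor of 3 counts per library, and floors and counting intervals cover counting error only. No libraries were identical, and no pair differed by sampling noise alone.

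The analysis was repeated with DESeq2 1.42.0, with upper-quartile factors, with library totals, with TMM without the 50 most abundant genes, with other filters, with a replicate block, with length corrections and with each mouse left out. Effective lengths were derived from the ratio of the controls' counts to their TPM, where TPM was at least 1. Of the gene identifiers, 17917 were matched to RefSeq (GRCm38.p6), whose coordinates and start sites are used, and 26 were not. Transcript lengths are those of the longest GENCODE transcript of each gene. Summaries used pandas 2.3.3 and scipy 1.17.1 in Python 3.11.15.

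The 35 genes and the other lists were chosen with earlier results of these data known. Named are all 35 genes, *Supt6*, marker genes, and of each wider list the most abundant gene and the called genes with the largest and smallest change. Values in every mouse are given for *Supt6*, the MYC network and the extremes of each role.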

Additional observations from a re-analysis of the deposited data

Results flagged for a closer look

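In 8 of 88 groups of mice 1 mouse lay far from the others. Chance would give about 1 in 20, or 4.4, if the groups were independent. They share the same libraries, and the summed CPM of the 35 genes is built from those genes. The value of 4.4 is therefore no yardstick for the number flagged. Of the 8 flagged, 7 were *Supt6*-KO mouse 4, which had the highest value each time. It was at 74.9 CPM for *Nolc1* (group median 29.5), 32.4 for *Polr1b* (21.5), 38.0 for *Rrp9* (21.5), 74.1 for *Wdr12* (44.9) and 165 for *Nop16* (122). Its summed CPM of the 35 genes was 5789 (group median 3903), and that of the proliferation markers was 985 (group median 369). The remaining one was control mouse 1 for *Mycn*, at 2.43 CPM against a group median of 1.04.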

How the results depend on the processing

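The fall of *Supt6* and the calls of *Myc*, *Mycn*, *Mxd1*, *Npm1*, *Gnl3*, *Nop56*, *Nhp2*, *Nop10*, *Nop16*, *Nip7* and *Wdr12* kept their direction and call under each alternative that gave a value. With library totals, 2771 of all genes were higher and 8970 lower, and of the 35 genes 9 were higher and 16 lower, 5 and 10 of them at least 2-fold (8.95% and 41.4% of all genes), while 32 other ribosome biogenesis genes were higher and 33 lower. That setting reversed *Max* (-0.36), *Gar1* (-0.47), *Utp4* (-0.14), *Utp14a* (-0.16) and *Pes1* (-0.51). Upper-quartile factors gave 16 other ribosome biogenesis genes lower (39.2% of all genes), and a minimum of 10 counts in every mouse, which removed *Mycn*, left 1 of the 35 genes lower by 2-fold (23.4% of all genes). With transcript lengths corrected for, 15 of the 35 genes were higher (36.1% of all genes) and 4 lower (31.9%), 1 at least 2-fold (20.4%), and *Ncl* (0.14), *Mybbp1a* (0.06), *Polr1b* (0.18), *Ubtf* (0.18), *Gar1* (-0.46), *Utp20* (0.40) and *Mdn1* (0.71) turned. With implied lengths, chosen after seeing the data, 17 of the 34 genes with a length were higher (38.4% of all genes) and 2 lower (35.1%), 0 at least 2-fold (19.8%) by the edgeR test, and *Ncl* (0.27), *Ddx21* (0.12), *Mybbp1a* (0.19), *Polr1b* (0.32), *Ubtf* (0.29), *Fbl* (-0.05), *Gar1* (-0.50), *Utp20* (0.53) and *Mdn1* (0.96) turned. The cause of these shifts was not tested.

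With each mouse left out in turn, 15 to 17 of the 35 genes were higher and 4 to 15 lower (4 without *Supt6*-KO mouse 3, 15 without *Supt6*-KO mouse 4), and 9 to 11 were higher and 2 to 4 lower by 2-fold. Of the other ribosome biogenesis genes 67 to 73 were higher and 9 to 20 lower, and of all genes 5305 to 5729 were higher and 5669 to 6392 lower. The log2 fold change of *Supt6* ranged from -1.66 to -1.47 (it was -2.26 with library totals, -0.80 with transcript lengths and -0.73 with implied lengths), that of *Gar1* from -0.04 to 0.30 and that of *Pes1* from -0.03 to 0.22. Same-numbered mice did not deviate together (mean r = 0.08, against -0.016 for other pairs), and 1 of 4 *Supt6*-KO mice correlated best with its own number. With the replicate block 16 of the 35 genes were higher (32% of all genes) and 10 lower (35.3%), and *Supt6* was at -1.46. Genes with few counts, such as *Mycn*, are limited by depth.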
